A study of Mus musculus with 25 samples.

Results

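Peptide hormones are made as long precursors that are cut and trimmed on their way through the secretory pathway. The proprotein convertases cut precursors after basic residues, basic carboxypeptidases then remove the basic residues left at the new C-terminus, and Pam, peptidylglycine alpha-amidating monooxygenase, converts a C-terminal glycine into an amide. Atrial myocytes store natriuretic peptides in secretory granules in which Pam is a major membrane protein. The enzymes described here are those that act before Pam: the convertases Furin, Pcsk5, Pcsk6 and Pcsk7 and the carboxypeptidases Cpe and Cpd. They were chosen by name, 6 of the 14457 genes tested, and all 6 were measured in every library.

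Messenger RNA was sequenced from atria of mice aged 60 to 90 days that received no treatment, in 25 libraries. The 4 groups were wild-type males (7 libraries), wild-type females (5), Pam knockout males (5) and Pam knockout females (8). The sources used here give neither strain, nor the deleted part of Pam, nor the cells that lost it or the promoter of any Cre. The labels describe each library as individual atria without naming the animal, so p-values measure the spread between these libraries. In the library codes, taken from the labels, W and K mark wild type and knockout, and M and F the sex.

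The library names in the labels form 3 sets: LARA (12 libraries, names beginning with LA or RA), CGI (9) and MaleKOAtrium (4, all from knockout males, with KM13 of the LARA set as the fifth). The meaning of the sets is not stated in any source used here. Depth ran from 2246887 reads in WF10 to 8098602 in KM07, and levels are CPM, read counts scaled to the same library total. Pam itself lay between 1409 and 6245 CPM in wild types and between 295 and 520 CPM in knockouts, with no overlap, and fell by 3.29 ± 0.24 on the log2 scale over both sexes (limma, SE, adjusted p = 1.99e-09). Summed atrial myocyte markers were similar in all libraries, 21980 to 35740 CPM. WF10 and KM01 stood apart: they were the least deep, with 30.2% and 18.5% of reads from mitochondrial genes against 7.70 to 12.97% elsewhere. WF10 also had the lowest sums of endothelial, fibroblast, macrophage and epicardial markers of wild-type females and the highest of ventricle markers, and KM01 had the highest sum of cell-cycle markers, 342 CPM. In WM1, WM2, WM3 and KF14 the atrial gene Bmp10 was at most 1.26 CPM, against 15.6 CPM or more elsewhere. The names of these libraries begin with LA, as do those of KF16 and KF17, which were not so low. WM1, WM2 and WM3 are wild-type males, and no knockout male was among the Bmp10-low libraries. The male groups thus differed in this as well as in genotype.

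In these atria none of the 6 upstream enzymes passed the test (limma, adjusted p under 0.05), in either sex, over both sexes, or in the difference between the sexes. The fit over both sexes has a term for the name set, which takes the 4 MaleKOAtrium libraries out of the difference. KM13 is thus the only knockout male in the values given over both sexes, unless the name set is said to be left out. The lowest unadjusted p-values belonged to Pcsk5 and Cpe in males, where knockouts had lower levels and the 95% intervals lay below 0. With array weights, which give libraries near their group's fit more weight, these 2 were called in males, among 3354 genes. Cpe was by far the most abundant per length and Pcsk5 the least. The highest Spearman rank correlation between 2 members over the 25 libraries was that of Furin and Pcsk7, 0.75, with Pcsk7 and Cpd close behind at 0.74. It was not computed within each genotype.

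For that reason the sequences just upstream of Furin and Pcsk7 are shown. Beside them stand those of Cpd, whose level went with theirs as well, and of Pcsk6, whose level did not. Each window holds the 250 bases before an annotated RefSeq transcript start (build GRCm38.p6), 5′ to 3′ on the gene's strand. Windows were found for 5 of the 6 members. Capitals mark the motif GGGCGG, which Sp1-like factors bind, and the motif TATAAA, which places the start of transcription in some genes. Both strands were searched, and a GGGCGG of the other strand reads CCGCCC. These motifs do not overlap one another here. CACGTG (the E-box of clock and Myc-like factors) and TGACGTCA (the cyclic AMP response element) were also searched and are in none of the 6 windows of these 5 genes.
Furin, outer start, chr7:80405437-80405686, minus strand: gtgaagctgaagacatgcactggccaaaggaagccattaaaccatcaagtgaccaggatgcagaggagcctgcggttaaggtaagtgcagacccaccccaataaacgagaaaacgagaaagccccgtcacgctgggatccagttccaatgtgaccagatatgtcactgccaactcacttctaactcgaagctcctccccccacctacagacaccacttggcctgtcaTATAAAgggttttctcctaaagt
Furin, inner start, chr7:80402813-80403062, minus strand: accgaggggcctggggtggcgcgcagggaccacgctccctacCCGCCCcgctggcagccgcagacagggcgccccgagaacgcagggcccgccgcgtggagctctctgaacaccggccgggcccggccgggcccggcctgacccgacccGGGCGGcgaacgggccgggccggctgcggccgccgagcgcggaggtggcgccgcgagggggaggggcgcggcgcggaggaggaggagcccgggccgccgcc
Pcsk7, chr9:45906319-45906568, plus strand: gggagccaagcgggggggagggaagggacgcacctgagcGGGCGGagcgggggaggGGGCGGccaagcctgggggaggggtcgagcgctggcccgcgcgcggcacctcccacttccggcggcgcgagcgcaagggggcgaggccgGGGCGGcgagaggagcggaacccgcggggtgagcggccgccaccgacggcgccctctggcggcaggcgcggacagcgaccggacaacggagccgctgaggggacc
Cpd, chr11:76847009-76847258, minus strand: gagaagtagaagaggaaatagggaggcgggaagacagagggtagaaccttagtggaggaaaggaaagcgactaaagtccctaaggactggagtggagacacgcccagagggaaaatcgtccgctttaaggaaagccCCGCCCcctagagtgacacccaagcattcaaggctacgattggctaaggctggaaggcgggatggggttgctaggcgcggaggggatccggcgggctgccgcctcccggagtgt
Pcsk6, chr7:65861886-65862135, plus strand: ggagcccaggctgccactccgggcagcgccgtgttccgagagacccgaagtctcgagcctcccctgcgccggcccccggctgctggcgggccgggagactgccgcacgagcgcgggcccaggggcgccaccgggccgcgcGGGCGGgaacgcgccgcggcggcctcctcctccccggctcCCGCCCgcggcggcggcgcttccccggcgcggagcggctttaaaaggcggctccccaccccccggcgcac

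The inner Furin window, the Pcsk7 window and the Pcsk6 window are rich in CpG, with 40, 36 and 40 CpG dinucleotides against a median of 6 over 32851 windows of the same length. They hold GGGCGG 2, 3 and 2 times, a motif present in 32.7% of those windows. The Cpd window has 14 CpG and 1 GGGCGG, and the Pcsk5 window, not shown, 15 CpG and 2 GGGCGG. CpG content thus did not separate the members whose levels went together from the others. The outer Furin window has 6 CpG, no GGGCGG and the single TATAAA, a motif of 12.4% of windows. CACGTG is in 6.02% of windows and TGACGTCA in 1.55%. Furin thus has 1 annotated start of each kind. A motif match is a description of the letters in these windows, and which Furin start was used was not measured.

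**Figure D1:**
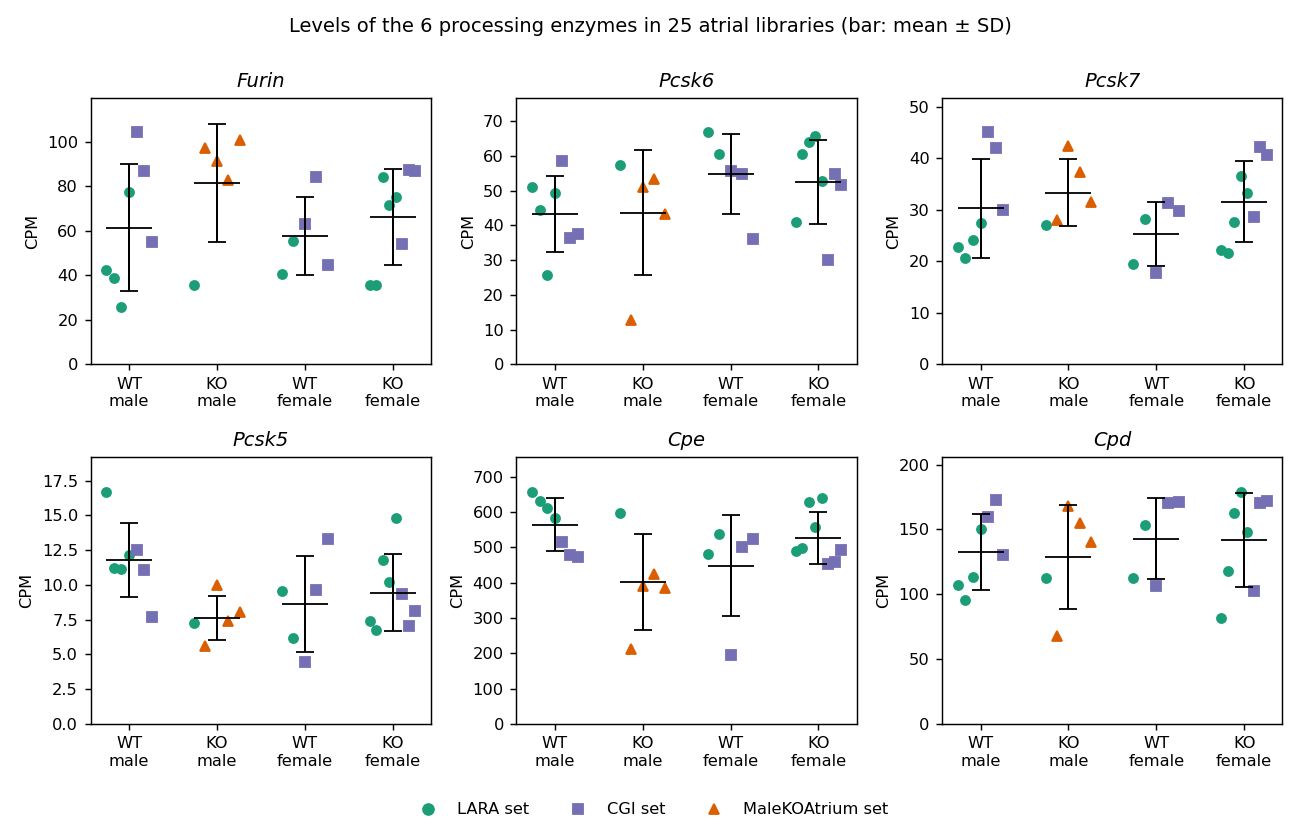
CPM of each enzyme in every library (points, shaped and coloured by name set) for wild-type (WT) and knockout (KO) males and females, with the mean ± SD of each group as a bar. The groups overlap for all 6 enzymes. KM13 lies apart from the other knockout males for Furin and Cpe, WF10 lies lowest of all for Cpe and Pcsk5, and KM01 lowest for Pcsk6 and Cpd.

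Furin, the ubiquitous convertase of the trans-Golgi network that in the heart cuts the precursor of B-type natriuretic peptide, is on chromosome 7 (80388585 to 80405436, GRCm38). In wild-type males it ran from 25.6 CPM (WM3) through a median of 55.0 to 104 CPM (WM5). The knockout males had 35.8 CPM in KM13, 83.0 in KM05, 91.5 in KM03, 97.4 in KM01 and 101 in KM07. The 4 knockout males of the MaleKOAtrium set were thus high and close together, KM13 was as low as the low wild types, and WM5 exceeded them all. Wild-type females had 40.7, 44.9, 55.3, 63.2 and 84.5 CPM in WF8, WF12, WF9, WF10 and WF11. Knockout females ran from 35.8 CPM (KF15) through a median of 73.5 to 87.3 CPM (KF20), over nearly the same range.

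The log2 difference of Furin was 0.46 ± 0.34 in males (limma, SE, adjusted p = 0.632), a fold of 1.38 with a 95% interval of 0.826 to 2.29. In females it was 0.25 ± 0.25 (adjusted p = 0.935), and 0.25 within each of the LARA and CGI sets. Over both sexes the fold was 1.11, with an interval of 0.798 to 1.54. The male value turned to -0.04 without WM1, WM2 and WM3, and to -0.24 with the name set in the fit, where it rests on KM13 alone. Furin levels differed between the name sets: 51.6 ± 20.2 CPM in the LARA set (SD, n = 12), 74.1 ± 20.2 in the CGI set (n = 9) and 93.2 ± 7.80 in the MaleKOAtrium set (n = 4). In males, set and genotype cannot be told apart for these last 4 libraries.

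Pcsk7, a membrane-bound convertase known for shedding the transferrin receptor, is on chromosome 9 (45906497 to 45929726). Wild-type males ran from 20.6 CPM (WM2) through a median of 27.4 to 45.0 CPM (WM5). Knockout males had 27.1 CPM in KM13, 28.1 in KM01, 31.5 in KM07, 37.3 in KM05 and 42.5 in KM03, all within the wild-type range. Wild-type females had 17.8 CPM in WF10, 19.6 in WF8, 28.2 in WF9, 29.8 in WF12 and 31.4 in WF11. Knockout females ran from 21.6 CPM (KF15) through a median of 30.9 to 42.3 CPM (KF20). Several knockout females, KF17, KF18, KF20 and KF21, lay above every wild-type female, and the rest lay among them.

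Of the 6 enzymes Pcsk7 had the smallest p over both sexes, with a log2 difference of 0.33 ± 0.17 (limma, SE, unadjusted p = 0.0573, adjusted p = 0.981). The fold was 1.26 with a 95% interval of 0.992 to 1.59. In females the difference was 0.37 ± 0.21 (adjusted p = 0.935), 0.22 within the LARA set and 0.50 within the CGI set, and it was 0.24 without WF10. In males it was 0.17 ± 0.21, and -0.10 without WM1, WM2 and WM3. Exons of Pcsk7 share 415 bases (7.98%) with exons of Rnf214 on the other strand. They also share 108 bases (2.08%) with exons of Tagln on that strand, a gene without values here. No source used here says whether the counting used strand.

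Pcsk6, also called PACE4, is a secreted convertase that binds the cell surface and is known to activate Corin, the protease that cuts pro-atrial natriuretic peptide. It is on chromosome 7 (65861734 to 66050386). Wild-type males ran from 25.8 CPM (WM3) through a median of 44.5 to 58.6 CPM (WM5). Knockout males had 12.8 CPM in KM01, 43.2 in KM07, 51.2 in KM03, 53.4 in KM05 and 57.6 in KM13. Only KM01, with 32 reads of Pcsk6, lay outside the wild-type range. Wild-type females had 36.0 CPM in WF12, 54.7 in WF11, 55.6 in WF10, 60.5 in WF9 and 66.8 in WF8. Knockout females ran from 30.0 CPM (KF19) through a median of 53.8 to 65.7 CPM (KF17), again with wide overlap.

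No comparison gave a Pcsk6 difference beyond its error. The log2 difference was -0.11 ± 0.32 in males, -0.15 ± 0.20 in females and -0.02 ± 0.24 over both sexes (limma, SE, adjusted p between 0.920 and 0.995). The fold over both sexes was 0.989 with a 95% interval of 0.705 to 1.39. The female log2 difference was -0.18 within the LARA set and -0.12 within the CGI set. The male value was 0.27 without KM01, 0.17 with array weights, and 0.47 with the name set in the fit, where it rests on KM13 alone. Its sign thus depended on the setting.

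Pcsk5, a convertase known for activating growth factors such as Gdf11, is on chromosome 19 (17432319 to 17837632). Wild-type males ran from 7.66 CPM (WM7) through a median of 11.2 to 16.7 CPM (WM1). Knockout males had 5.61 CPM in KM01, 7.24 in KM13, 7.38 in KM05, 8.03 in KM07 and 9.99 in KM03. All 5 knockout males lay below 6 of the 7 wild-type males, and only WM7 lay among them. Wild-type females had 4.45 CPM in WF10, 6.17 in WF9, 9.54 in WF8, 9.64 in WF11 and 13.3 in WF12. Knockout females ran from 6.75 CPM (KF15) through a median of 8.74 to 14.8 CPM (KF18), and the 2 female groups overlapped throughout.

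In males the log2 difference of Pcsk5 was -0.56 ± 0.20 (limma, SE), with an unadjusted p of 0.0135 and an adjusted p of 0.291, so it did not pass the test. The fold was 0.681 with a 95% interval of 0.508 to 0.912. It kept its sign in all 25 alternatives, from -0.73 to -0.45. The -0.73 was found both with the name set in the fit and in the LARA set alone, which rest on KM13 alone. In females the difference was 0.13 ± 0.25 (adjusted p = 0.956), 0.31 within the LARA set and -0.04 within the CGI set. The difference between the sexes was 0.80 ± 0.47 (adjusted p = 0.626) in a fit with the name set, where the male knockout effect rests on KM13 alone. Without the name set it was 0.71 ± 0.32 (adjusted p = 0.398). Pcsk5 rested on few reads, 10 in WF10 to 91 in WM5.

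Cpe, the carboxypeptidase of regulated secretory granules that finishes many peptide hormones, is on chromosome 8 (64592542 to 64693054). Wild-type males ran from 474 CPM (WM7) through a median of 584 to 657 CPM (WM1). Knockout males had 213 CPM in KM01, 385.0 in KM07, 389 in KM03, 424 in KM05 and 598 in KM13. The 4 males of the MaleKOAtrium set lay below every wild-type male, and KM13 lay among them. Wild-type females had 196 CPM in WF10, 482 in WF8, 500.3 in WF11, 525 in WF12 and 537 in WF9. Knockout females ran from 454 CPM (KF19) through a median of 496 to 639.9 CPM (KF18), and apart from WF10 the female groups overlapped.

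The male log2 difference of Cpe was -0.55 ± 0.22 (limma, SE, unadjusted p = 0.0243, adjusted p = 0.336), a fold of 0.682 with a 95% interval of 0.493 to 0.945. It was -0.34 without KM01 and -0.05 with the name set in the fit. In females it was 0.23 ± 0.21 (adjusted p = 0.935), 0.14 within the LARA set, 0.33 within the CGI set, and 0.01 without WF10. Over both sexes it was 0.17 ± 0.17 (adjusted p = 0.986) and -0.11 without the name set. Cpe followed the name sets, with 576 ± 61.9 CPM in the LARA set (SD, n = 12), 454 ± 99.7 in the CGI set (n = 9) and 353 ± 95.1 in the MaleKOAtrium set (n = 4). The low values of WF10 and KM01 fall in the CGI and MaleKOAtrium sets and pull these 2 means down. The medians of the LARA, CGI and MaleKOAtrium sets were 591, 477 and 387 CPM. Within the LARA set KM13, at 598 CPM, lay among the wild-type males of that set, which had 584 to 657 CPM.

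Marker genes of epicardial cells were low in the same knockout males as Cpe. The 7 epicardial markers, all measured, summed to 801 to 1211 CPM in wild-type males, to 824 CPM in KM13 and to 187 to 301 CPM in the other knockout males. By limma 3 of the 7 were called lower, beside 0.249% of all genes. EdgeR called 2 of the 7 and DESeq2 6, among 40 and 413 genes. None of the 7 was at 0 in any library. The 6 fibroblast markers summed to 2773 to 4623 CPM in wild-type males and 2536 to 3181 CPM in knockout males, with none called. The Pcsk5 level and the epicardial sum were both lowest in WF10 (4.45 and 151 CPM) and both highest in WM1 (16.7 and 1211 CPM). In KM13 they parted, with the next to lowest Pcsk5 of the knockout males beside an epicardial sum within the wild-type range. Of markers that were higher in knockout males, the 5 erythroid ones summed to 2057 to 5477 CPM against 381 to 2939 CPM in wild types. The 6 cell-cycle markers summed to 26.9 to 342 CPM against 13.01 to 72.5 CPM. All 5 erythroid and 3 of the 6 cell-cycle markers had an unadjusted p under 0.05, beside 1711 of all 14457 genes, with none called by limma or edgeR. DESeq2 called 2 cell-cycle markers, Birc5 and Rrm2, and no erythroid one. The cell-cycle gene Ccnb1 was at 0 in some libraries. The part of these cells in the Cpe and Pcsk5 values was not tested. In whole atria, fewer cells of a type and less mRNA per cell cannot be told apart.

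Cpd, a membrane carboxypeptidase that cycles through the trans-Golgi network, is on chromosome 11 (76778424 to 76847018). Wild-type males ran from 95.2 CPM (WM2) through a median of 130.5 to 173 CPM (WM6). Knockout males had 67.8 CPM in KM01, 112 in KM13, 141 in KM07, 155 in KM05 and 168 in KM03. KM01 alone lay below the wild-type range. Wild-type females had 106 CPM in WF10, 113 in WF8, 154 in WF9, 170.2 in WF11 and 171 in WF12. Knockout females ran from 81.8 CPM (KF14) through a median of 155 to 179 CPM (KF17), enclosing the wild types.

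Cpd had the value nearest to 0 over both sexes, a log2 difference of -0.01 ± 0.20 (limma, SE, adjusted p = 0.997). The fold was 0.996 with a 95% interval of 0.754 to 1.31. In females the fold was 0.9995 with an interval of 0.728 to 1.37, and in males 0.945 with an interval of 0.673 to 1.33. The female difference was 0.01 within the LARA set and -0.02 within the CGI set. The male log2 difference was -0.08, and -0.31 without WM1, WM2 and WM3. Changes of Cpd smaller than these intervals were not detectable at this number of libraries.

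**Figure D2:**
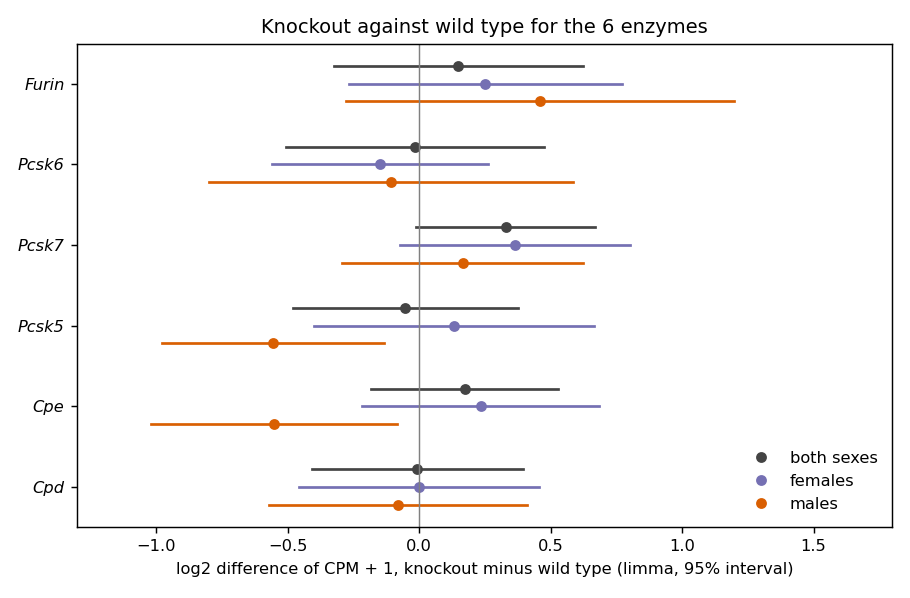
Log2 difference of CPM + 1, knockout minus wild type (limma estimate as a point, 95% interval as a line), for both sexes, females and males. The difference over both sexes has KM13 as its only knockout male. Only the male intervals of Pcsk5 and Cpe lie to one side of 0, and neither passed the test after adjustment over 14457 genes.

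Counted together, 0 of 6 members were called over both sexes (limma, adjusted p under 0.05), where 0.00692% of all genes tested were called, Pam alone. In females 0 of 6 were called against a background of 0.0138%, and in males 0 of 6 against 0.277%, 40 genes. At an unadjusted p under 0.05, 0 members passed over both sexes and 0 in females, beside 532 and 570 of all 14457 genes. In males 2 members, Pcsk5 and Cpe, passed beside 1711 genes. In the comparison of the knockout effects of females and males, whose fit has the name set and so rests on KM13 for the male knockouts, 0 of 6 were called and 0% of all genes, with 0 members and 1326 genes at an unadjusted p under 0.05 (edgeR called 10 genes there and DESeq2 235). Without the name set 0 of 6 and 23 genes were called. By edgeR and by DESeq2, too, 0 of 6 were called in each of the 4 comparisons. With backgrounds this low, 0 of 6 says nothing particular about these enzymes.

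The groups of libraries overlapped for all 6 members in males, in females and with the sexes pooled. Of all genes, 1.62% had groups that did not overlap in males, 0.118% in females and 0.00692% over both sexes. The median log2 difference of the 4 convertases was 0.03 in males, 0.19 in females and 0.07 over both sexes, beside 0.05, 0.11 and 0.07 over all genes. For the 2 carboxypeptidases the medians were -0.32, 0.12 and 0.08 in that order. Scaling by median-ratio size factors moved the median of all genes in females from 0.11 to 0.01 and that of the difference between the sexes from 0.25 to 0.02. With that scaling the female Cpd value was -0.11, and the sex difference of Cpd turned from 0.13 to -0.12.

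The authors' deposited table gives 1 p-value and 1 log2 ratio per gene, wild type over knockout. In the authors' deposited table Pcsk5 has the lowest p of the 6 enzymes, 0.0588, with a ratio of 0.26, and Pcsk6 the highest, 0.771. The sources used here do not say whether that p is adjusted.

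Levels can be compared between genes only per length, here as CPM per kilobase of exon (GENCODE M21). The length is the union of the exons of all annotated transcripts, 9178 bases for Furin, 5190 for Pcsk6 and 5202 for Pcsk7. Which transcripts were present was not measured, and a union longer than the transcripts present understates a gene. The order of Pcsk6, Furin and Pcsk7 and the shares of the convertases depend on these lengths. Over the wild types the median was 199 for Cpe, 16.9 for Cpd, 9.68 for Pcsk6, 6.004 for Furin, 5.35 for Pcsk7 and 0.770 for Pcsk5. Over the knockouts the medians were 187, 17.7, 10.2, 9.04, 6.05 and 0.556 in the same order. Cpe exceeded Cpd in each of the 25 libraries, by 5.89 to 21.1 times, Cpd exceeded Pcsk6 in all 25, and Pcsk7 exceeded Pcsk5 in all 25. The neighbours in between were less separate: Pcsk6 exceeded Furin in 10 of 12 wild types and 9 of 13 knockouts, and Furin exceeded Pcsk7 in 10 of 12 and 10 of 13. Pcsk6 exceeded Pcsk7 in 11 of 12 and 12 of 13, all but WM6 and KM01.

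**Figure D3:**
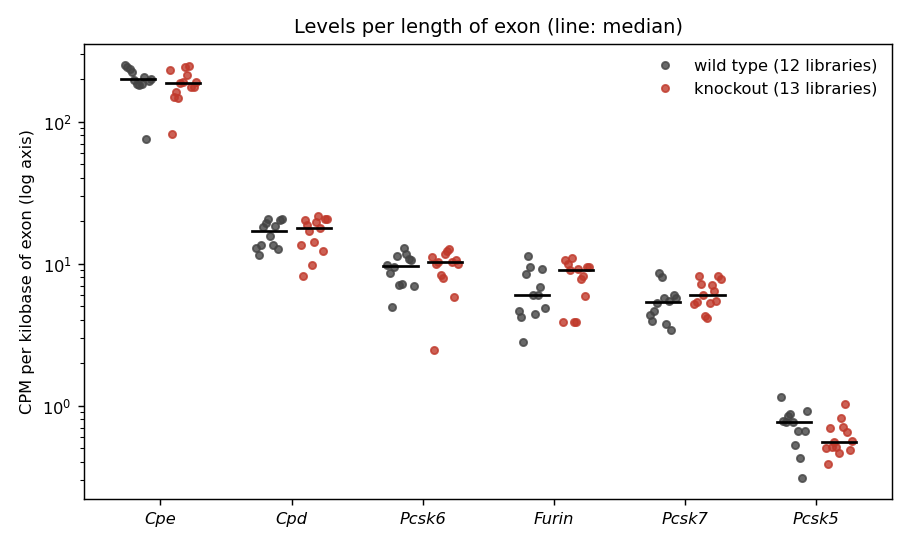
CPM per kilobase of exon (log axis) of the 6 enzymes in 12 wild-type and 13 knockout libraries, 1 point a library, with the median as a line. Cpe lies above the others in every library, Pcsk6, Furin and Pcsk7 overlap, and Pcsk5 is lowest.

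Within the pool of the 4 convertases per kilobase, Furin made up 18.9% (KM13) to 42.4% (KM07) in all libraries but KM01, where it was 56.3%. Pcsk6 made up 27.7% to 59.3%, and 13.1% in KM01. Pcsk5 contributed 1.44% to 5.86%. Within the pair of carboxypeptidases, Cpe made up 85.5% (WF10) to 95.5% (WM2), so Cpd was the minor transcript in every library of either genotype.

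Among the members, Furin and Pcsk7 were the most alike across libraries, with a Spearman rho of 0.75 over 25 libraries and 0.85 over the 23 without WF10 and KM01. Pcsk7 and Cpd had a rho of 0.74, and Furin and Cpd of 0.49 (0.68 over the 23). Pcsk5 and Cpe formed another pair, with a rho of 0.65 (0.55 over the 23), whereas Furin and Cpe had a rho of -0.43. Pcsk6 had a rho between -0.12 and 0.28 with each other member. These correlations describe libraries that share name sets, depth and tissue make-up, and carry no test.

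**Figure D4:**
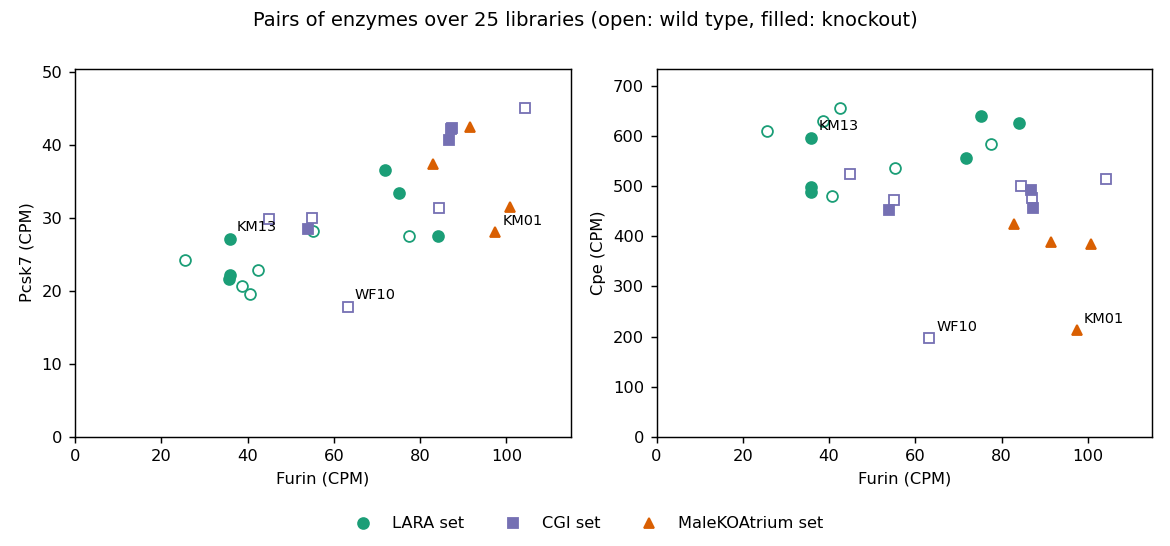
Pcsk7 against Furin (left) and Cpe against Furin (right), both in CPM, 1 point a library, shaped and coloured by name set, open for wild type and filled for knockout. Pcsk7 tends to be higher where Furin is higher, but KM01 and KF16 combine high Furin with a Pcsk7 level below its median. The libraries of the MaleKOAtrium set combine high Furin with low Cpe.

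**Figure D5:**
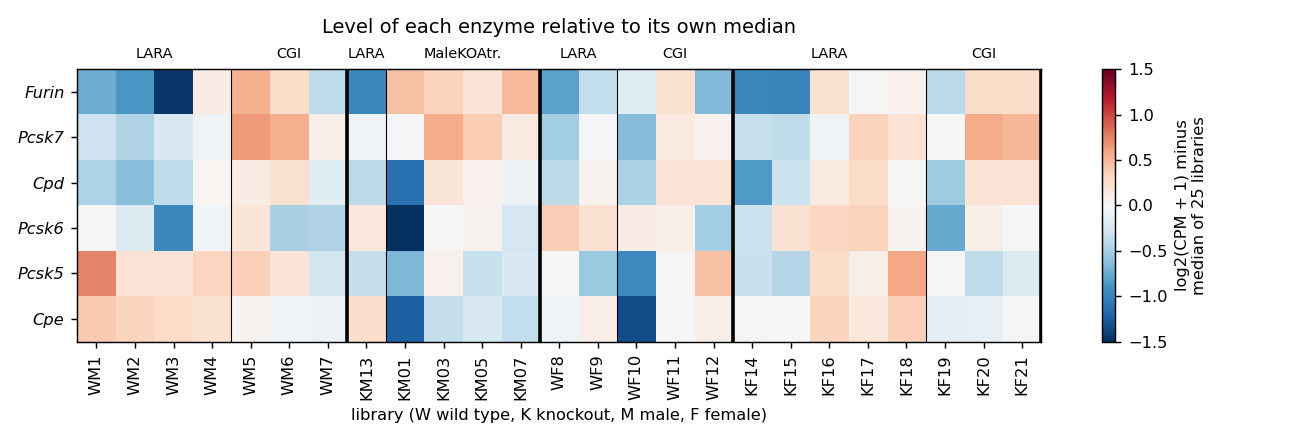
Log2(CPM + 1) of each enzyme in each library minus its median over 25 libraries, ordered by group and name set. Furin, Pcsk7 and Cpd share low values in WM1, WM2, WM3, WF8, KF14 and KF15, in which Cpe is near or above its median. KM01 and WF10 are low for Cpe and Pcsk5.

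Among 11408 genes with a mean of at least 5 CPM, those most like each member over the 25 libraries by Spearman rho were as follows. Furin was most like Enah (0.93), Ddi2 (0.92) and Ttc7b (0.92), and Pcsk7 was most like Zscan29 (0.95), Dennd5a (0.95) and Wdr13 (0.94). Cpd was most like Gm40841 (0.92), Dcaf6 (0.90) and Tnks2 (0.90). Cpe was most like Itm2c (0.89), Htra1 (0.89) and Cd82 (0.88), and Pcsk5 was most like Smoc1 (0.86), Col23a1 (0.84) and Cdon (0.84). Pcsk6 had the weakest best matches, Gsn (0.79), Tubgcp2 (0.78) and Uqcrc1 (0.76).

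Of 7 other convertases and prohormone proteases listed, 4 were measured, and 0 of 4 were called in any of the 4 comparisons (limma). Corin, which cuts pro-atrial natriuretic peptide at the myocyte surface, had a median of 53.9 CPM per kilobase in wild types and 70.1 in knockouts. Its log2 difference was 0.26 ± 0.35 over both sexes (adjusted p = 0.986). Ctsl, a cathepsin that can also process prohormones, had -0.62 ± 0.21 in males (adjusted p = 0.277). Mbtps1, the site-1 protease of the Golgi, had 0.24 ± 0.20 over both sexes (adjusted p = 0.981), and Pcsk4 reached at most 3.12 CPM in any library. Only Ctsl in males had an unadjusted p under 0.05, and edgeR and DESeq2 called 0 of 4 as well. For this and all male values of the lists below, set and genotype cannot be told apart in the 4 MaleKOAtrium libraries.

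Of the 9 convertase inhibitors, sorting receptors and adaptors that were measured, such as Sort1, Sorl1, Pacs1 and the Gga genes, 0 were called in any comparison by limma, edgeR or DESeq2, with 1 at an unadjusted p under 0.05, Serpina3n in males. Their medians were 0.08 over both sexes and 0.25 in males. Of 7 other measured genes of carboxypeptidases or carboxypeptidase-like proteins, 0 were called as well by limma and edgeR in any comparison. The median log2 difference of these 7 was 0.27 over both sexes and -0.38 in males. The lowest adjusted p of this list in males was that of Cpn1, 0.153, at -0.92 ± 0.24. Aebp1, a matrix protein with a carboxypeptidase-like domain, had -1.07 ± 0.28 in males (adjusted p = 0.163), with 46.3 to 109 CPM in knockouts and 84.7 to 240.5 CPM in wild types. Cpm, a membrane-anchored carboxypeptidase, had 0.77 ± 0.21 in males (adjusted p = 0.177). In males 4 of the 7 had an unadjusted p under 0.05, beside 1711 of all 14457 genes. DESeq2 called 3 of them, Cpm, Cpn1 and Aebp1, among 413 genes. In the sex difference 2 had such a p and DESeq2 called 1, Cpm. In females 1 had such a p and DESeq2 called 0.

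Of the later steps, Pam alone was called, lower in each of the 3 comparisons of genotype. Qpct, which cyclises N-terminal glutamine, had -0.75 ± 0.23 in males (adjusted p = 0.237). DESeq2 called it lower and edgeR did not. Of 11 granule proteins and 15 peptide-degrading peptidases measured, 0 were called in any comparison by limma. In males 2 granule proteins and 1 peptidase had an unadjusted p under 0.05, beside 1711 of all 14457 genes. The smallest p of these in males were those of Cadps2, -0.72 ± 0.26, and of Dpp4, -1.01 ± 0.23 (adjusted p = 0.297 and 0.0893). Dpp4, a dipeptidyl peptidase of the cell surface, was the only one of these 26 that edgeR or DESeq2 called.

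Among 38 measured substrates of convertases or other proteases, 2 were called in males, and 0 in females, between the sexes or over both sexes. The 2 stand beside 0.277% of all genes called in males (limma). At an unadjusted p under 0.05 there were 7 in males, 2 between the sexes, 0 in females and 0 over both sexes. In males edgeR called 3, the same 2 and Sema3a, and DESeq2 called 5, among 40 and 413 genes. Of all 14457 genes, 1711 had an unadjusted p under 0.05 in males. Of all genes, 0.0277% were called higher in males and 0.249% lower. Apln, the precursor of apelin, rose in knockout males by 2.12 ± 0.38 on the log2 scale (limma, SE, adjusted p = 0.0291). Wild-type males had 1.60 to 3.50 CPM, and knockout males 12.2 in KM05, 15.6 in KM03, 20.3 in KM07, 26.9 in KM01 and 2.97 in KM13. The rise was thus in the MaleKOAtrium set, KM13 lay within the wild-type range, and the value with the name set in the fit was 0.42.

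Sema3c, a secreted semaphorin that convertases can cut, fell in knockout males by 1.26 ± 0.23 on the log2 scale (limma, adjusted p = 0.0296). Wild-type males had 61.5 to 133 CPM, with a median of 75.8. Knockout males had 26.9 CPM in KM03, 27.1 in KM13, 39.3 in KM01, 42.5 in KM05 and 42.8 in KM07. The male groups did not overlap, KM13 included, as for 1.62% of all genes. Sema3c stayed between -1.06 and -1.93 on the log2 scale in all 25 alternatives. The -1.93 was that of the fit with the name set, where it rests on KM13 alone. Both calls depended on which libraries were used, while both differences kept their sign in all 25 alternatives. Without WM1, WM2 and WM3 the log2 difference was 1.95 for Apln and -1.06 for Sema3c. The limma adjusted p was then 0.465 for Apln and 0.437 for Sema3c, where fewer libraries remained. Leaving out WM1, WM2, WM3, WM4, WM6, KM01, KM03, KM05 or KM07 also took Apln past the threshold, to adjusted p-values of 0.0569 to 0.103. For Sema3c this held for WM1, WM2, WM3, WM4, KM03, KM05 and KM07, with 0.0554 to 0.0847. In females the groups overlapped for Sema3c, with 41.8 to 141 CPM in wild types and 40.9 to 118 in knockouts. The difference between the sexes, in which the male knockouts are KM13 alone, had an adjusted p of 0.360. That p was 0.193 without the name set and 0.0352 with array weights, and over all alternatives it ran from 0.0352 to 0.496.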

How the data were processed

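Atrial mRNA of 25 libraries (stranded TruSeq, paired reads of 75 bases, a single NextSeq run, per the labels) was aligned with HISAT2 to mm10 and counted with HTSeq by the authors, per the submitters' processing notes, with no versions stated. The values deposited for single libraries are CPM, although the file header calls them FPKM: in each library all values were whole multiples of the same step (100%, tolerance 0.001 reads), from which reads and depth were recovered. The authors' deposited p-value and log2 ratio are per gene. The header of the p-value names DESeq2, as do the submitters' processing notes. That of the ratio names only wild type over knockout. Which model gave the p-value is not stated. The lowest mean over libraries was 1.00 CPM. Of 14467 lines, 10 with repeated symbols were left out.

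Comparisons used limma (version 3.58.1, R 4.3.3, lmFit and eBayes with trend) on log2(CPM + 1). A gene was called at a p under 0.05 after Benjamini-Hochberg adjustment over all 14457 genes. Such a log2 difference understates changes of low genes. FPKM had been foreseen, and the same transformation was used. The fit over both sexes had terms for sex and name set, which leaves the MaleKOAtrium libraries out of the difference. The female fit and the fit of the sex difference had the name set, so the latter has KM13 as its only knockout male, and the male fit had none. No source used here says whether the MaleKOAtrium libraries were counted with the same annotation. Alternatives included edgeR 4.0.16 and DESeq2 1.42.0 on the recovered counts of the deposited CPM, other scalings, a pseudocount of 0.5, array weights, single name sets and leaving out libraries. A floor of 3 reads is 0.370 CPM in the deepest and 1.34 CPM in the least deep library, for counting error only. No libraries were identical. The procedure was tested on simulated counts.

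Exon lengths and coordinates are from GENCODE M21 (GRCm38), upstream sequences from RefSeq (GRCm38.p6). Members and gene lists were chosen with earlier results of these data known, as were the 4 libraries low in Bmp10. Beside the 6 members and Pam, every measured gene of the short pathway lists could be named, of the long lists the called genes or the 3 of smallest p, and the 3 genes most like each member. Rnf214 and Tagln were named for their overlap with Pcsk7, and Bmp10 and Sema3a after their values were seen. Markers of lymphocytes are not reported here.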

Additional observations from a re-analysis of the deposited data

Results flagged for a closer look

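Among 28 values of groups with 5 to 8 libraries, 2 had a library far from the rest, about what chance gives at 1 in 20. Furin in KM13 was 35.8 CPM, the lowest of the knockout males, and the other 4 had 83.0 to 101 CPM. KM13 is the only knockout male of the LARA set, in which Furin ran from 25.6 to 84.1 CPM. Cpe in WF10 was 196 CPM, the lowest of the wild-type females, and the other 4 had 482 to 537 CPM. WF10 was the least deep library, with 30.2% of reads from mitochondrial genes and low sums of fibroblast and endothelial markers (1519 and 522 CPM). Their part in these values was not tested.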

How the results depend on the processing

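Of 738 values of the 6 enzymes under alternative settings, 2 were called and 60 had the other sign, all of the latter uncalled. Some of these settings give the same fit: in males, leaving out WF10 and KM01 leaves out KM01 alone. With array weights, which count libraries near their group's fit more, 2 members were called in males, Pcsk5 (log2 -0.52, adjusted p = 0.0369) and Cpe (-0.48, adjusted p = 0.0248), among 3354 genes called there; the cause was not tested. In every other setting run, leaving out each library included, 0 of 6 were called in each comparison (leave-one-out range 0 to 0). The male adjusted p over all alternatives ran from 0.0369 to 0.999 for Pcsk5 and from 0.0248 to 0.999 for Cpe. Leaving out WF10 and KM01, and a spread shared by all 4 groups, were chosen after seeing the data.

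The number of genes called moved more. In males it was 40, with 40 by edgeR, 413 by DESeq2, 63 after median-ratio scaling, 74 after quantile normalization, 62 with a spread shared by all 4 groups, 1 with the name set as a term, 3 in the LARA set alone, 1 without WM1, WM2 and WM3, and 16 to 205 leaving out 1 library (205 without KM13). In females it was 2, with 1 by edgeR, median-ratio scaling, quantile normalization or the LARA set alone, 11 by DESeq2, 5 with array weights and 21 in the CGI set alone. Over both sexes it was 1, with 3 by DESeq2, 21 with array weights, 2 without WF10 and KM01, and 1 to 3 leaving out 1 library (3 without KM01). For the sex difference it was 0, with 10 by edgeR, 235 by DESeq2, 591 with array weights and 23 without the name set.

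The replicate numbers 1, 3, 5 and 7 occur in wild-type and knockout males. Their deviations correlated at 0.24, -0.20, 0.25 and 0.07, and 2 of the 4 knockout males correlated best with their own number. With only 4 such numbers this cannot decide whether a shared number marks a pair. With the replicate block 0 of 6 members and 1 gene were called in males, with Furin at 0.88, Pcsk5 at -0.55 and Cpe at -0.71, and neither Apln (2.50) nor Sema3c (-1.07) was called.

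Depth limits Pcsk5 most, which had 10 to 91 reads per library.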
